A study of Homo sapiens with 6 samples.

Results

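Antisense transcripts of A673 Ewing sarcoma cells, and the genes they are named after, were followed through the knockdown of the fusion gene EWSR1::FLI1. The members were the rows of the deposited gene table whose symbol ends in -AS and a digit and whose mean FPKM (mapped fragments per length of transcript and depth of library) over the 6 libraries was 0.5 or more, FEZF1-AS1 left out. This gave 432 of 26364 rows, from 979 rows with such a name, of which 546 were below the limit and 8 of those were listed at 0 in all libraries. The members were chosen by their measured FPKM in these libraries, so their levels are a description. For 423 members the gene named before -AS was in the same table, giving 408 different sense partners. The other 9 have no such row, among them HOXC-AS1, HOXC-AS2 and HOXC-AS3, whose name gives a gene cluster and not a gene.

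A673, an established line of Ewing sarcoma cells, has the fusion EWSR1::FLI1 as its driver oncogene. The cells, A673/TR/shEF, hold a doxycycline-inducible short hairpin RNA against EWSR1::FLI1 and were grown with blasticidin and zeocin in both groups. The EWSR1::FLI1 high group (n = 3) was untreated, and the EWSR1::FLI1 low group (n = 3) had 1 µg/mL doxycycline for 72 h. The samples are numbered as experiments in the labels and called clones in the design text, so the p-values measure the spread between these samples, which may be technical, and an effect of doxycycline itself cannot be told apart from that of the hairpin.

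A natural antisense transcript is read from the strand opposite to another gene. Some overlap the exons of the sense gene, some lie inside its introns, and some start beside its promoter and run the other way, a layout now often named divergent transcript (-DT). Members of this class are known to act on the sense gene in some cases and to be by-products of an active promoter in others, and many are present at a low level and stay in the nucleus. EWSR1::FLI1 is a transcription factor with the DNA-binding domain of the ETS family, which recognises a GGAA core and also opens chromatin at GGAA repeats.

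The libraries came from a kit that marks the strand, but whether strand was used in the counting is not given in the sources used here. Reads from the shared bases of an overlapping pair may therefore have been given to either gene, and the values of such pairs are uncertain to that extent.

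The labels were checked first. FLI1, which gives the fusion its 3' end, had 11.3, 12.7 and 14.2 FPKM in the high group and 2.91, 4.29 and 3.68 FPKM in the low group, and NR0B1, a known EWSR1::FLI1 target, had means of 29.6 and 4.56 FPKM. Of the other Ewing sarcoma markers, CD99 had means of 133 and 91.8 FPKM, JAK1 258 and 158, STEAP1 152 and 34.5, LIPI 199.96 and 38.2, BCL11B 19.8 and 3.68 and NKX2-2 4.56 and 1.42 FPKM in the high and low groups. The leukocyte and epithelial markers PTPRC and EPCAM were under 0.9 FPKM in every library. The endothelial marker PECAM1 had 0.278, 0.366 and 0.348 FPKM in the high group and 0.934, 1.56 and 0.879 FPKM in the low group, and its part in the results was not tested. The libraries held between 6980361 and 16658933 reads on genes, of which the members took 0.193% to 0.254%, so that the median member rested on 11 to 24 reads per library. In bulk RNA, fewer cells of a type and less RNA per cell cannot be told apart.

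Low replicate 1 stood apart from the others at low levels. The median of all rows was 1.096 FPKM in this library and 0.667 to 0.847 FPKM in the other 5, and the median over members was 1.23 FPKM against 0.854 to 0.961 FPKM. Olfactory receptor genes, which should be silent in these cells, gave a measure of the floor, and their median was 0.481 FPKM in low replicate 1 and 0.190 to 0.302 FPKM elsewhere. Of 378 olfactory receptor rows 86, or 22.8%, also had a mean of 0.5 FPKM or more. The limit for members thus lies within the range of genes that should be silent, and 152 of the 432 members exceeded the 90th percentile of the olfactory receptor rows in every library.

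Most members were scarce. The median of their mean levels was 0.908 FPKM, 200 members reached 1 FPKM, 102 reached 2, 32 reached 5 and 14 reached 10. The sense partners had a median of 8.96 FPKM. In the 423 pairs the antisense transcript had, at the median, 13.8% of the level of its partner per length. It was below 0.1 times the partner in 183 pairs and above the partner in 81. The group means of 348 members were 0.5 FPKM or more in both groups, 61 reached it in the low group only and 23 in the high group only. Of those 61, 41 also reached 0.5 FPKM over low replicates 2 and 3, and 375 of the 432 members reached the limit without low replicate 1.

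**Figure D1:**
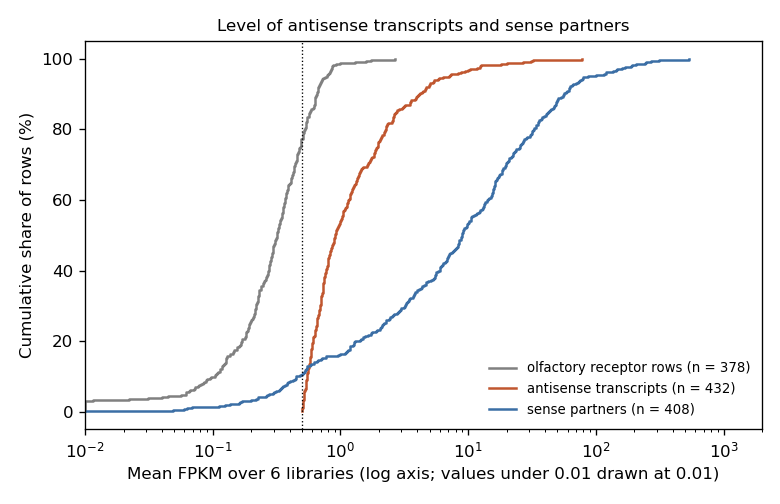
Cumulative share of rows (percent) against the mean FPKM over 6 libraries (log axis) for antisense transcripts, sense partners and olfactory receptor rows. The dotted line is the limit of 0.5 FPKM used to choose the members, and 22.8% of the olfactory receptor rows lie to its right.

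Just inside the limit were EDRF1-AS1, SSSCA1-AS1 and VWA8-AS1 with means of 0.502, 0.502 and 0.503 FPKM. Just outside it were STK4-AS1, RDH10-AS1 and TAT-AS1 with 0.498, 0.498 and 0.499 FPKM. These 6 rows had values between 0.158 and 1.22 FPKM in single libraries, a wider range than their distance from the limit.

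The members were placed on GRCh37, the build of the deposited files, with GENCODE gene models. The exons of 256 pairs overlapped, and at the median 9.60% of the antisense exon bases were shared. In 78 pairs the gene bodies overlapped without shared exon bases, 70 pairs were head to head with start sites within 1000 bases and no overlap, and 5 had no overlap at all. In all, 146 pairs had start sites within 1000 bases. HNRNPU-AS1 matched its partner HNRNPU itself, and 22 members could not be placed beside a partner. In the current RefSeq names 56 members end in -DT, and 4 are listed as protein coding, among them TOPORS-AS1, now SMIM27, and NCBP2-AS2, now NCBP2AS2. LRRC75A-AS1 is now SNHG29, a small nucleolar RNA host gene.

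For 3 of the pairs described below the start regions of both genes overlap, and these are shown because in one of them only the antisense transcript passed the test. Each sequence is the RefSeq window from 250 bases before to 50 bases after the start of the antisense gene, on its own strand in GRCh38.p14, and capitals mark the bases that also lie in the window of the sense partner. C9orf135-AS1 (chr9:69820690-69820989, minus strand) shares 177 bases with C9orf135, TRAM2-AS1 (chr6:52576952-52577251, plus strand) shares 241 bases with TRAM2, and OSER1-AS1 (chr20:44210710-44211009, plus strand) shares 288 bases with OSER1.
C9orf135-AS1: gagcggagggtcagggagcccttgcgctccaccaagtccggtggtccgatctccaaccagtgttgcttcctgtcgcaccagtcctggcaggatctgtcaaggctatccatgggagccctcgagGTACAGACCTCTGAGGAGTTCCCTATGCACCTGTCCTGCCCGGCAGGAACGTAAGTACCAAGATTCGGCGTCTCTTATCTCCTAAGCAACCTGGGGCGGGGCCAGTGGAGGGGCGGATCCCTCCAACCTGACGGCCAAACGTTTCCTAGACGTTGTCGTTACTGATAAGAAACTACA
TRAM2-AS1: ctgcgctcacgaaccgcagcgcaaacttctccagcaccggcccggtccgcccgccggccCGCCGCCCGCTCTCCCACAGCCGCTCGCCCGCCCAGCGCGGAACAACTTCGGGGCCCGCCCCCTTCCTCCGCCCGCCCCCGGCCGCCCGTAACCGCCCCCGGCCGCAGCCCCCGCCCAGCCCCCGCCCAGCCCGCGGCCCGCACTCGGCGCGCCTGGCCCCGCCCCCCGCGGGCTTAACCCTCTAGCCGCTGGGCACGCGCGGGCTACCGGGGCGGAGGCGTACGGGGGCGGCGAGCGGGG
OSER1-AS1: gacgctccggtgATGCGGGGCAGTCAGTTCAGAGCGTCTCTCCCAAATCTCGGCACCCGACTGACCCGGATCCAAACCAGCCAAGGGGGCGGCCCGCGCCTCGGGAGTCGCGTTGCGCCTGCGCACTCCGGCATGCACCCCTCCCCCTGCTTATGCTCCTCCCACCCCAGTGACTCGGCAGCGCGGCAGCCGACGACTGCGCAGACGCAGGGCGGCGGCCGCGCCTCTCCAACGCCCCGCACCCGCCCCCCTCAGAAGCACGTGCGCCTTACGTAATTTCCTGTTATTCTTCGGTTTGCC

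The windows were searched on both strands for GGAAGGAA, a pair of GGAA repeats, and for CCGGAAGT, a common ETS site, which both hold the GGAA core and may share bases where they lie together. GGAAGGAA was in a window of 15 of 330 antisense transcripts (4.55%) and 22 of 344 partners (6.40%), and in 3.67% of all 35116 RefSeq windows. CCGGAAGT was in a window of 18 antisense transcripts (5.45%) and 26 partners (7.56%), and in 4.14% of all windows. A gene with several windows counted if any of them held the motif. The shares of genes and of all windows are therefore counted in unlike ways, which can raise those of the genes. Among the members that passed the test below and had a window of their own, PROSER2-AS1 held a CCGGAAGT, read as its reverse complement. Its window (chr10:11894661-11894960, minus strand) is given with this match in capitals.
PROSER2-AS1: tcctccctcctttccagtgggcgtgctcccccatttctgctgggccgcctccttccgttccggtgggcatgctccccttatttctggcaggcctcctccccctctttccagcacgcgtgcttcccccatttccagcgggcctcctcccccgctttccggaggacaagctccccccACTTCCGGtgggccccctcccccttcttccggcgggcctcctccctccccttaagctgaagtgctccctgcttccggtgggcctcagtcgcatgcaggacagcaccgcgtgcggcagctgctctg

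Few of these transcripts differed past the test after knockdown of EWSR1::FLI1. With limma on log2(FPKM + 1) across 15504 genes, 9 of the 432 members (2.08%) passed a Benjamini-Hochberg adjusted p of 0.01, and 7.88% of all genes tested did. Among the 9, SEPT4-AS1 passed the limit on the level through the low group alone, where it was high, so that its test is no support and 8 calls remain. HNRNPU-AS1, still among these 8, matched its partner HNRNPU itself and may hold reads of that gene. Of the 9, 5 were higher in the low group (TRAM2-AS1, ATE1-AS1, ARHGAP5-AS1, SEPT4-AS1 and OSER1-AS1), with 4.51% of all genes higher, and 4 were lower (ITGB2-AS1, C9orf135-AS1, HNRNPU-AS1 and PROSER2-AS1), with 3.37% of all genes lower. The 366 different partners that were tested gave 51 calls (13.9%), 35 higher and 16 lower. SEPT4, also admitted through the low group alone, is among the higher ones. At an adjusted p of 0.05 there were 37 members beside 19.8% of all genes. Of these 22 were higher (all genes 9.87%) and 15 lower (all genes 9.91%). An unadjusted p under 0.05 was found for 67 members (15.5%) and 34.3% of all genes. The 3 libraries of a group did not overlap those of the other group in 95 members (22.0%) and in 41.1% of all genes. Low lay above high in 58 members (all genes 17.5%) and below in 37 (all genes 23.6%). Members that reached 0.5 FPKM in the low group only (61) or the high group only (23) were not removed from these counts. The split of members by direction is therefore a description. The median log2 fold change, low minus high, was 0.04 over the members, -0.06 over the partners and -0.05 over all genes. A fold change on this scale understates the change of scarce transcripts.

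The share of members that passed differed with their level. It was 1 of 232 at 0.5 to 1 FPKM, where 1.09% of all genes passed and the 1 was SEPT4-AS1, 1 of 98 at 1 to 2 FPKM (all genes 7.40%) and 4 of 70 at 2 to 5 FPKM (all genes 12.6%). Among the 32 members at 5 FPKM or more it was 3, or 9.38%, and 9.02% of all genes at that level passed. In the most abundant class the share of members thus lay near that of all genes, but it rests on these 3 calls. They include HNRNPU-AS1, which matched its partner HNRNPU itself, so its reads may belong to that gene. Of the 9 that passed, 7 exceeded the 90th percentile of the olfactory receptor rows in every library.

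**Figure D2:**
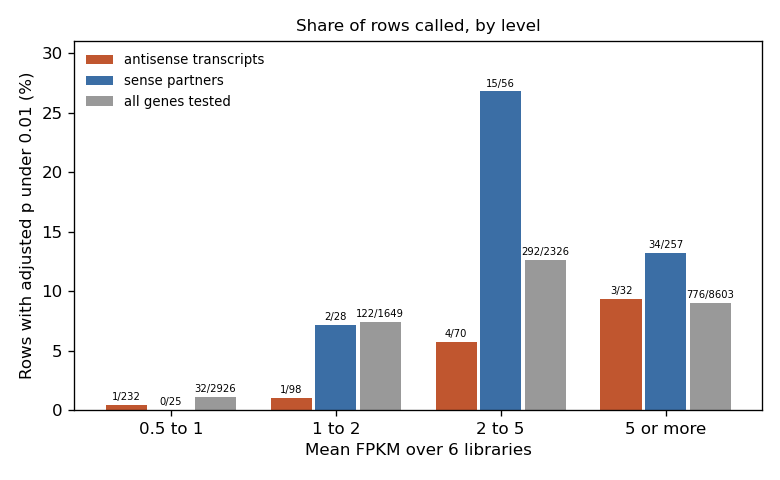
Percentage of rows with an adjusted p under 0.01 by mean FPKM over 6 libraries, for antisense transcripts, sense partners and all genes tested, with the numbers of rows above the bars. The antisense bars are below those of all genes up to 5 FPKM, and 3 of 32 (9.38%) against 9.02% from there on.

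The count of 9 changed when single libraries were left out. It was 16 without low replicate 1, where 14.0% of all genes passed, 3 without low replicate 2 and 5 without low replicate 3. Without any one of the high replicates it was 1. The 51 partner calls moved too, to 80, 40 and 43 without low replicates 1, 2 and 3. They were 28, 23 and 24 without high replicates 1, 2 and 3. Among these fits the share of all genes was taken only for the one without low replicate 1. Whether the drops in the other fits are particular to antisense transcripts therefore cannot be told. ITGB2-AS1 passed in 14 of 14 alternative analyses and C9orf135-AS1 in 11, whereas SEPT4-AS1 and OSER1-AS1 passed in 5.

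**Figure D3:**
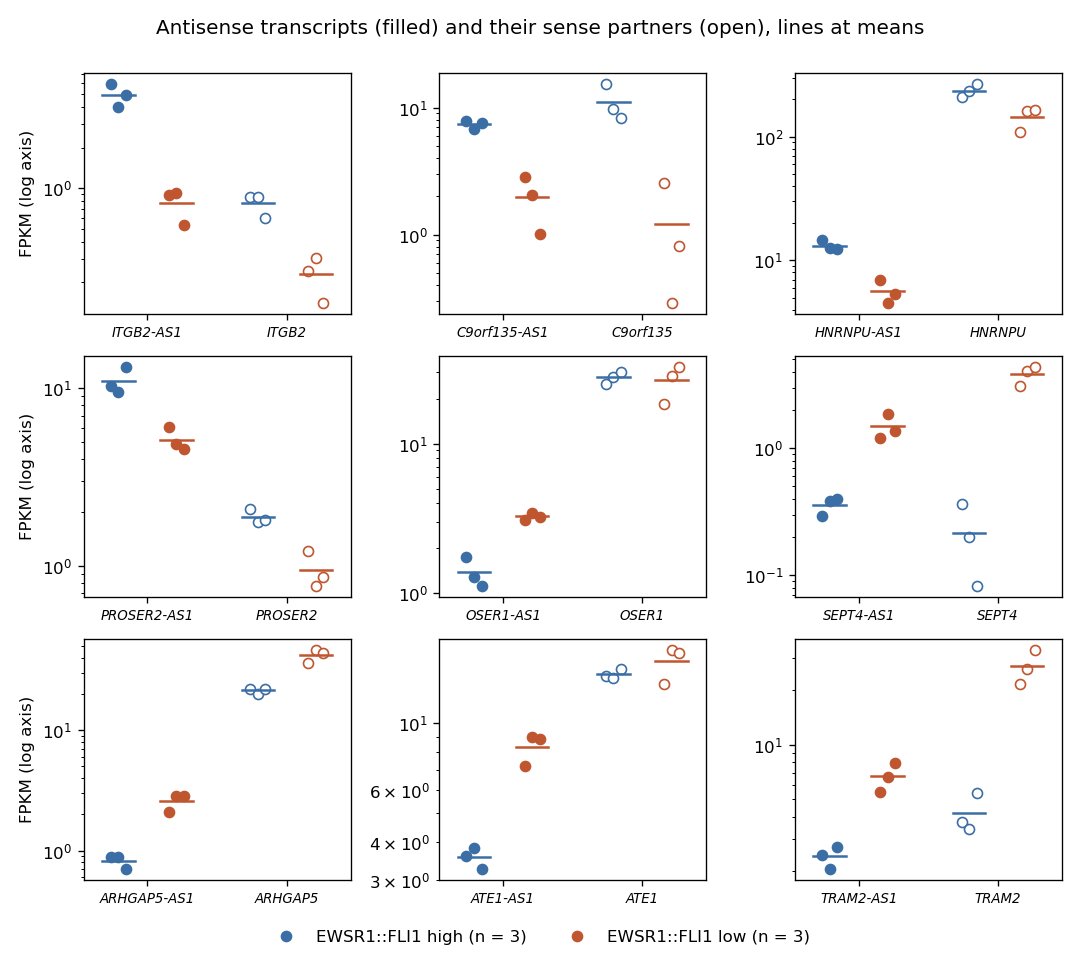
FPKM (log axis, scaled per panel) in each library of the 9 antisense transcripts with an adjusted p under 0.01 (filled circles) and their sense partners (open circles), with lines at the means of 3 EWSR1::FLI1 high and 3 EWSR1::FLI1 low libraries. The groups do not overlap for any of the 9 antisense transcripts, while those of ATE1 and OSER1 do.

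Among the transcripts that fell, ITGB2-AS1 changed most. It lies antisense to ITGB2, the beta 2 integrin subunit of leukocytes, at chr21:46340966-46349595 on the plus strand (GRCh37), with 12.1% of its exon bases in ITGB2 exons. Its levels were 5.93, 4.03 and 4.91 FPKM in the high group and 0.892, 0.916 and 0.536 FPKM in the low group. All high libraries lay above all low libraries, and the means, 4.96 ± 0.948 and 0.781 ± 0.213 FPKM (SD, n = 3), differed 6.34-fold. The log2 fold change was -1.74 ± 0.18 (SE) with a limma adjusted p of 0.00042. ITGB2 itself was scarce, with 0.858, 0.857 and 0.601 FPKM in the high group and 0.244, 0.303 and 0.139 FPKM in the low group, a log2 fold change of -0.53 with a limma adjusted p of 0.054. ITGB2 passed the limit on the level through the high group alone, where it was high, so its test is no support and its values are a description. In this pair the antisense transcript was the more abundant one in all 6 libraries.

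C9orf135-AS1 (CFAP95-DT in RefSeq) and C9orf135 (now CFAP95) start 44 bases apart, head to head, on chromosome 9. The antisense transcript had 7.80, 6.71 and 7.59 FPKM in the high group and 2.83, 2.05 and 1.01 FPKM in the low group, 3.75-fold lower in the mean (log2 fold change -1.54 ± 0.24, limma adjusted p = 0.00276). C9orf135 had 15.3, 9.66 and 8.32 FPKM and then 2.56, 0.287 and 0.807 FPKM, with a log2 fold change of -2.54 (limma adjusted p = 0.00196). Both transcripts of the shared start region shown above therefore fell.

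HNRNPU-AS1 is named for HNRNPU, a nuclear RNA-binding scaffold protein, and the current annotation lists the name as a synonym of HNRNPU, so its reads may belong to that gene. It had 14.7, 12.5 and 12.3 FPKM in the high group and 6.98, 4.50 and 5.38 FPKM in the low group (log2 fold change -1.11 ± 0.19, limma adjusted p = 0.005). HNRNPU had 208, 232 and 266 FPKM and then 110, 162 and 164 FPKM, with a log2 fold change of -0.71 and a limma adjusted p of 0.0413. The groups were apart in both rows.

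PROSER2-AS1 shares 31 exon bases with PROSER2 at chr10:11891607-11936699 on the minus strand (GRCh37), and the start sites lie 71361 bases apart. It had 10.3, 9.50 and 13.2 FPKM in the high group and 6.02, 4.83 and 4.53 FPKM in the low group, 2.14-fold lower (log2 fold change -0.97 ± 0.19, limma adjusted p = 0.00862). PROSER2 had 2.09, 1.77 and 1.82 FPKM and then 1.21, 0.768 and 0.866 FPKM, with a log2 fold change of -0.57 and a limma adjusted p of 0.0385. The antisense transcript was above its partner in every library.

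Among the 5 transcripts that were higher at an adjusted p of 0.01, TRAM2-AS1 had the largest log2 fold change. TRAM2 is a membrane protein of the endoplasmic reticulum with a known part in collagen synthesis. TRAM2-AS1, at chr6:52441585-52507856 on the plus strand (GRCh37), shares 1.05% of its exon bases with TRAM2, which starts 273 bases away on the other strand. Its levels were 2.46, 2.06 and 2.73 FPKM in the high group and 5.45, 6.67 and 7.93 FPKM in the low group, 2.77-fold higher (log2 fold change 1.16 ± 0.18, limma adjusted p = 0.00293). TRAM2 went from 3.74, 3.41 and 5.43 FPKM to 21.6, 26.2 and 33.5 FPKM, a log2 fold change of 2.43 (limma adjusted p = 0.000244). Both rose, the sense gene by more.

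ARHGAP5-AS1 starts 679 bases from ARHGAP5, with 16.5% of its exon bases in exons of that gene. The antisense transcript had 0.893, 0.881 and 0.705 FPKM in the high group and 2.11, 2.86 and 2.86 FPKM in the low group, from 7 to 12 and from 24 to 57 reads (log2 fold change 0.98 ± 0.16, limma adjusted p = 0.00446). ARHGAP5 had 21.9, 20.1 and 22.2 FPKM and then 36.3, 46.5 and 43.6 FPKM, a log2 fold change of 0.94 (limma adjusted p = 0.00795). Both transcripts were higher in all low libraries, the antisense 3.15-fold and the sense gene 1.97-fold in the FPKM means. With 0.1 FPKM added the log2 fold changes were 1.54 and 0.97.

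SEPT4-AS1 rested on the fewest reads. SEPT4 is a septin, a filament-forming GTP-binding protein, and 47.4% of the antisense exon bases lie in its exons. SEPT4-AS1 had 2 reads in each high library and 7, 10 and 14 reads in the low libraries (0.292, 0.384 and 0.395 FPKM against 1.21, 1.87 and 1.38 FPKM), and it reached 0.5 FPKM in the low group only. The ratio of the summed reads per size factor was 4.14, with a 95% interval of 1.70 to 12.2 (exact binomial, counting error only). SEPT4 had 0.363, 0.199 and 0.0820 FPKM and then 3.11, 4.03 and 4.36 FPKM. Both rows were tested through the low group only, so these values are a description.

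ATE1-AS1 and OSER1-AS1 rose beside partners that did not pass the test. ATE1 attaches arginine to proteins, and its antisense row is now listed as the pseudogene transcript ATE1OSP, with 20.8% of its exon bases in ATE1. ATE1-AS1 had 3.61, 3.83 and 3.26 FPKM in the high group and 7.21, 8.97 and 8.84 FPKM in the low group, 2.34-fold higher (log2 fold change 1.03 ± 0.16, limma adjusted p = 0.00331). ATE1 had 14.4, 14.1 and 15.2 FPKM and then 13.5, 17.6 and 17.2 FPKM, with a limma adjusted p of 0.663, and its groups overlapped.

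OSER1-AS1 (OSER1-DT in RefSeq) starts 136 bases from OSER1, a gene named for its response to oxidative stress, and shares no exon base with it. It had 1.75, 1.29 and 1.12 FPKM in the high group and 3.10, 3.43 and 3.26 FPKM in the low group, 2.36-fold higher (log2 fold change 0.85 ± 0.16, limma adjusted p = 0.00844). OSER1 had 25.2, 27.7 and 30.1 FPKM and then 18.5, 28.5 and 32.5 FPKM, with a limma adjusted p of 0.821. These genes have nearly the same promoter window, and the antisense groups were apart while the sense groups overlapped.

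The log2 ratio of antisense to sense within each library, with 1 FPKM added to both, gives the difference between the members of a pair directly. From the high to the low group it moved by 0.90 for ATE1-AS1, 0.94 for OSER1-AS1 and 0.99 for C9orf135-AS1, and by -1.21 for ITGB2-AS1 and -1.27 for TRAM2-AS1. In each of these pairs the libraries of the groups did not overlap, and the exact two-sided permutation p was 0.1, the smallest that 3 against 3 libraries can give. ITGB2 passed the limit on the level through the high group only, so the ratio of ITGB2-AS1 is a description. The ratio of SEPT4-AS1 moved by -1.13, and by -1.95 with 0.1 FPKM added. Both rows of that pair passed the limit on the level through the low group only, so its ratio is a description. For ARHGAP5-AS1 the ratio moved by 0.04 (exact permutation p = 0.8), but by 0.57 (exact permutation p = 0.1) with 0.1 FPKM added. For PROSER2-AS1 it moved by -0.39 (exact permutation p = 0.1) and by -0.14 (exact permutation p = 0.6) with 0.1 FPKM added. The design cannot reach 0.05 in this test.

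Across the 381 pairs with both genes tested, the log2 fold changes of antisense and sense had a Pearson r of 0.398 and a Spearman coefficient of 0.362. The points share the 6 libraries and, in overlapping pairs, possibly reads, and they include rows that reached 0.5 FPKM in the mean of a single group. Pearson's r was 0.357 without low replicate 1 and 0.453 over the 91 pairs whose antisense transcript had 2 FPKM or more. It was 0.407 over 231 pairs with overlapping exons, 0.380 over 65 pairs with overlapping bodies only and 0.481 over 68 head to head pairs, which share no exon bases. Of the members with overlapping exons 6 of 256 (2.34%) passed the test, as did 2 of 70 head to head members (2.86%), beside 7.88% of all genes tested. The 6 include SEPT4-AS1, which was admitted through the low group alone.

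Both members of 4 pairs passed, each pair in 1 direction. These were TRAM2, C9orf135 and ARHGAP5, and SEPT4, which entered the test through the low group alone. The antisense transcript alone passed in 5 pairs, the sense partner alone in 53 and neither in 319. In those 53 pairs the antisense fold change had the sign of its partner in 40. At an adjusted p of 0.05 both members passed in 17 pairs, 16 of them with the same sign.

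**Figure D4:**
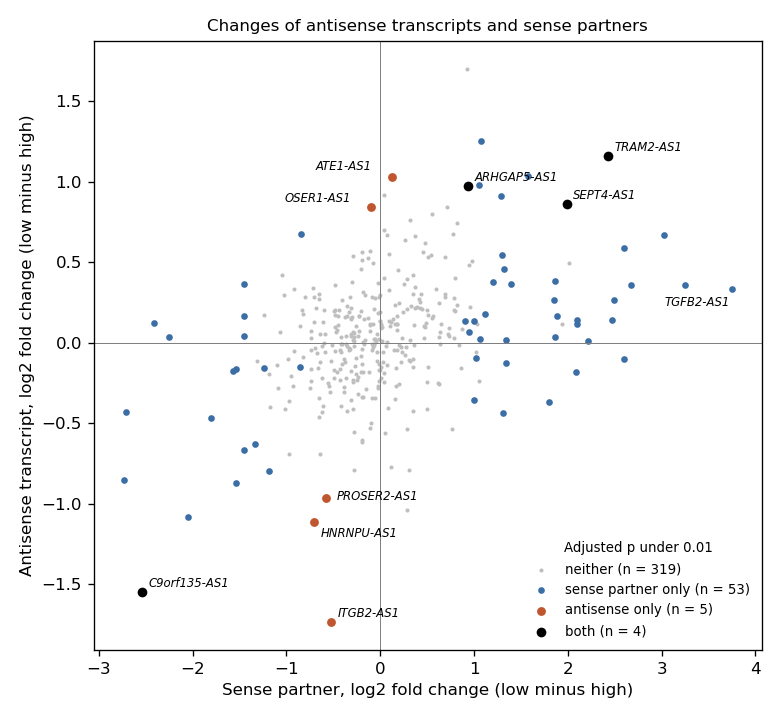
log2 fold change (low minus high) of the antisense transcript against that of its sense partner for 381 pairs, with colours for the member that passed an adjusted p of 0.01. The 4 pairs with both members called, SEPT4 among them, lie in the quadrants of equal sign, and TGFB2-AS1 lies near 0 beside the largest rise of a named partner.

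The widest gap of a named pair was at TGFB2, which encodes a ligand of the TGF-beta pathway. TGFB2 had 0.560, 0.527 and 0.629 FPKM in the high group and 25.4, 18.5 and 17.2 FPKM in the low group (log2 fold change 3.75, limma adjusted p = 1.74e-05). TGFB2-AS1, with 38.0% of its exon bases in TGFB2 exons, had 6, 4 and 0 reads and then 9, 4 and 4 reads (limma adjusted p = 0.51). The antisense groups overlapped, and a change was not detectable at this depth.

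VIM-AS1 was close to the limit of the test. VIM encodes vimentin, the intermediate filament of mesenchymal cells, and had 289, 340 and 389 FPKM in the high group and 545, 839 and 789 FPKM in the low group (log2 fold change 1.08, limma adjusted p = 0.00717). VIM-AS1 had 1.58, 2.14 and 2.14 FPKM and then 3.56, 8.08 and 7.34 FPKM, with a log2 fold change of 1.25 and a limma adjusted p of 0.0119. Over the alternatives the adjusted p lay between 0.000624, without low replicate 1, and 0.0452, without high replicate 2. VIM-AS1 shares 30.9% of its exon bases with VIM, at a level far below it in every library.

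SERTAD4-AS1, singled out after its values were seen, had the highest log2 fold change of all members at 1.70 and a limma adjusted p of 0.0113. Its high libraries spread widely, with 1.07, 3.92 and 4.52 FPKM, below 12.1, 8.99 and 13.8 FPKM in the low group. SERTAD4 had a log2 fold change of 0.92 with a limma adjusted p of 0.0285.

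None of the 10 most abundant members passed the test as fitted here, beside 9.02% of all genes at 5 FPKM or more. OIP5-AS1 and RAB30-AS1 did in some alternatives. LRRC75A-AS1 (SNHG29) was the highest, with 78.7, 76.3 and 76.5 FPKM in the high group and 72.3, 70.8 and 94.3 FPKM in the low group, while LRRC75A was below 1 FPKM in all libraries. FGD5-AS1, THAP9-AS1, EPB41L4A-AS1 and PSMA3-AS1 lay between 15.7 and 36.0 FPKM in every library, and their groups overlapped. PAX8-AS1 and RNASEH1-AS1 had groups that did not overlap, a pattern found in 41.1% of all genes tested, with limma adjusted p of 0.217 and 0.198.

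OIP5-AS1, a conserved RNA known to bind the microRNA miR-7, had 45.2, 43.3 and 45.0 FPKM in the high group and 19.7, 23.0 and 29.8 FPKM in the low group (log2 fold change -0.87, limma adjusted p = 0.0167). OIP5, which helps to load the centromere histone, had 19.3, 19.9 and 22.9 FPKM and then 4.91, 4.83 and 11.2 FPKM (log2 fold change -1.53, limma adjusted p = 0.00724). RAB30-AS1 (RAB30-DT) had 41.2, 41.0 and 41.2 FPKM and then 20.7, 21.0 and 29.4 FPKM (log2 fold change -0.79, limma adjusted p = 0.0227), and RAB30, a small GTPase of the Golgi, had overlapping groups with a log2 fold change of 0.30 (limma adjusted p = 0.285). GABPB1-AS1 had a log2 fold change of -0.55 and a limma adjusted p of 0.0497. In these 3 antisense transcripts every low library lay below every high library, as in 23.6% of all genes tested. The limma adjusted p of OIP5-AS1 was 0.00385 with median-ratio scaling, 0.00289 with quantile normalization, 0.00996 with limma-voom, 0.00884 without low replicate 1 and 0.00699 without low replicate 3, and at most 0.0784 over all alternatives. That of RAB30-AS1 was 0.007 with median-ratio scaling and 0.0073 without low replicate 3, and at most 0.0973.

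**Figure D5:**
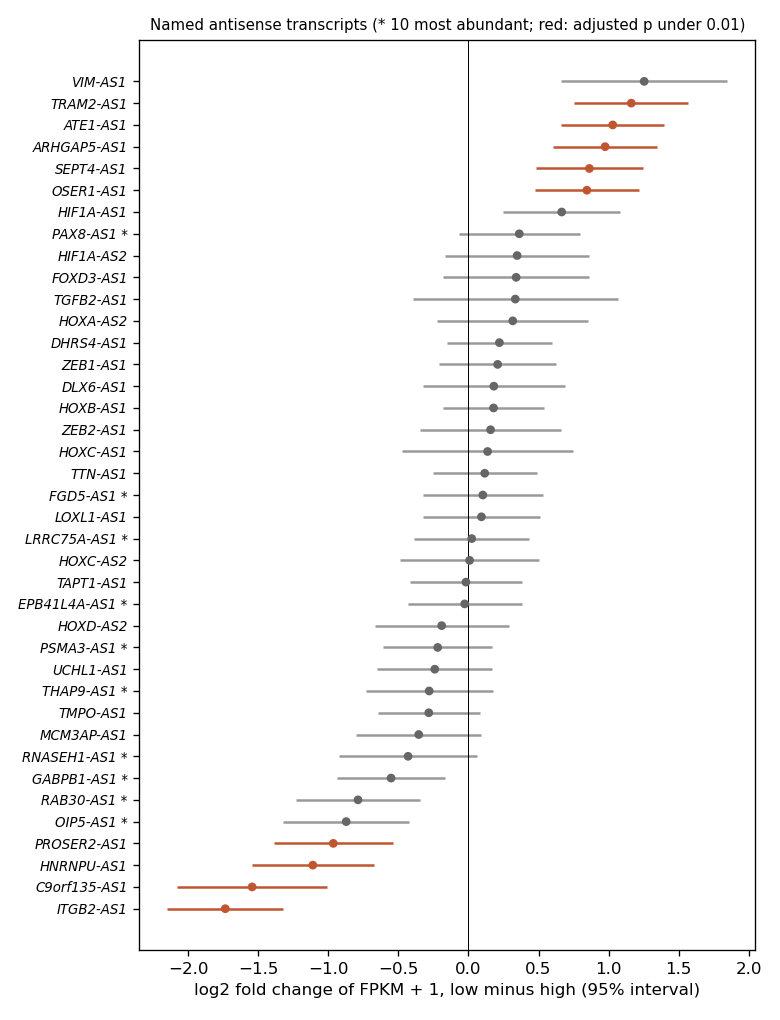
log2 fold change of FPKM + 1 (low minus high) with its 95% interval for the 39 named antisense transcripts: the 9 that passed, the 10 most abundant (asterisk) and the listed well-known ones. ITGB2-AS1 (-1.74) and VIM-AS1 (1.25) are at the ends, and most intervals of the transcripts drawn in grey include 0.

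Of 43 well-known antisense RNAs listed by name, 41 were in the table and 25 were members. Of these 25, 2 passed, ITGB2-AS1 and TRAM2-AS1, a share near the 7.88% of all genes tested. CDKN2B-AS1 had 0 FPKM in 5 libraries and 0.029 FPKM in low replicate 2. The HOX cluster members HOXA-AS2, HOXB-AS1, HOXC-AS1, HOXC-AS2 and HOXD-AS2 had overlapping groups, and HOXD-AS2 was the most abundant, with 3.99 to 7.46 FPKM. HIF1A-AS1, antisense to the hypoxia factor gene HIF1A, had 0.731, 1.35 and 0.990 FPKM and then 2.59, 2.24 and 1.77 FPKM (log2 fold change 0.67, limma adjusted p = 0.0349).

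FOXD3-AS1 had 2.55, 2.23 and 1.05 FPKM in the high group and 2.28, 3.16 and 2.49 FPKM in the low group, while FOXD3, a neural crest factor, had 1.20, 1.52 and 2.06 FPKM and then 0.544, 0.649 and 0.496 FPKM (log2 fold change -0.72, limma adjusted p = 0.0231). DLX6-AS1 had a log2 fold change of 0.18 and DLX6 one of -0.82 (limma adjusted p = 0.612 and 0.0592). Neither gene of either pair passed the test, and the log2 ratio of antisense to sense moved by 1.06 and 1.00, each with an exact permutation p of 0.1. LOXL1-AS1 had overlapping groups, and LOXL1, a collagen and elastin cross-linking enzyme, had a log2 fold change of 0.74 (limma adjusted p = 0.0342).

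Other noncoding RNAs that overlap genes were read for comparison. Of 93 listed rows (names ending in -AS, -IT or -OT, and a few by name) 41 were tested, 1 rose and 3 fell (9.76%), beside 7.88% of all genes tested, 4.51% higher and 3.37% lower. DNM3OS, which lies antisense within DNM3, rose from a mean of 13.8 to 48.7 FPKM (limma adjusted p = 0.00273). NRG1-IT1 fell from 24.3 to 4.33 FPKM (limma adjusted p = 0.000211), KBTBD11-OT1 from 3.46 to 0.621 FPKM and ALMS1-IT1 from 5.10 to 1.76 FPKM (limma adjusted p = 0.00349 and 0.0074).

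Genes that degrade nuclear RNA, a fate of many antisense transcripts, were listed too. None of the 20 (exosome subunits and cofactors) passed with limma at an adjusted p of 0.01. An unadjusted p under 0.05 was found for 10, beside 34.3% of all genes, and 2 passed with limma-voom on the recovered reads, beside 11.2% of all genes. Their log2 fold changes were below 0 in 19 of 20, and those of all genes tested in 8492 of 15504. The median was -0.46 over the 20 and -0.05 over all genes. Of the enzymes that edit, cut or unwind double-stranded RNA, 8 were tested and none passed with limma (4 with an unadjusted p under 0.05, 0 with limma-voom), with a median of -0.37. EXOSC9, an exosome core subunit, came nearest, with means of 135 and 57.5 FPKM and a limma adjusted p of 0.0103. Its adjusted p was between 0.00207 and 0.0586 over the alternatives, and it was 0.00355 with limma-voom, 0.00398 with median-ratio scaling, 0.00259 with quantile normalization and 0.00877 without low replicate 1.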

How the data were processed

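RNA of 6 cultures was depleted of ribosomal RNA and sequenced by the authors from ScriptSeq v2 libraries. The submitters' processing notes name STAR 2.5.0b, Cufflinks 2.2.1, bedtools 2.17.0, DESeq2 1.6.3 and the build GRCh37. The deposited table of FPKM, scaled by the authors, was used for all levels. A deposited table of the authors' comparison gave the mean normalized count (signal) per gene, which was used to turn FPKM into reads: 100% of the values above 0 were whole within 0.1 reads. Its fold changes, standard errors, statistics and p-values were not used.

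Genes with a mean FPKM of 0.5 or more (15504) were tested with limma 3.58.1 (trend, R 4.3.3) on log2(FPKM + 1), low minus high, with Benjamini-Hochberg adjustment over all of them and a call at 0.01. The test was tried on simulated data. Named transcripts were those called, the 10 most abundant, members of a list of well-known names, their partners, and the rows next to the limit. The members and lists were chosen with earlier results of these data known. Antisense names were matched by symbol or RefSeq synonym. Promoter windows came from RefSeq (GRCh38.p14), GRCh37 positions from GENCODE. Alternatives were another pseudocount, filter, scaling or cutoff, no trend, a replicate block, limma-voom on the recovered reads, and leaving out each library. Intervals of read ratios cover counting error only. Ratios within pairs were compared by exact permutation with scipy 1.17.1.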

Additional observations from a re-analysis of the deposited data

How the results depend on the processing

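The 9 antisense calls became 3 without a filter on low levels, 16 with the replicate block (1702 of the 15504 genes tested), 37 at an adjusted p of 0.05, 5 with a log2 fold change beyond 1 also required, and 1 to 16 when 1 library was left out. The 51 partner calls became 30 without a filter, 111 at an adjusted p of 0.05, and 23 to 80 when 1 library was left out. With a pseudocount of 0.1, a filter of 1 FPKM, median-ratio scaling, quantile normalization, no trend or limma-voom on the recovered reads, 8 to 12 antisense transcripts were called, and limma-voom, with 12 (11.2% of all genes), kept 6 of the 9. Of all genes tested, 19.8% passed at an adjusted p of 0.05, and 14.0% passed at 0.01 without low replicate 1. In the main fit 7.88% did. Apart from these settings, the block and limma-voom, the share of all genes was not taken. For the remaining settings it cannot be told whether the antisense or partner counts moved more than those of all genes. The block kept all 9, but whether the numbers pair the samples is not settled. Same-numbered libraries had correlations of their deviations of 0.27, 0.09 and 0.12, against -0.29 to 0.19 for other pairings. No called transcript changed sign in any of these analyses that tested it. Among uncalled ones the log2 fold change turned for EPB41L4A-AS1 with median-ratio scaling (0.058) and quantile normalization (0.11), HOXC-AS1 with limma-voom (-0.11), HOXC-AS2 with limma-voom (-0.089), a pseudocount of 0.1 (-0.037) and quantile normalization (-0.15), TTN-AS1 (-0.012) and OSER1 (0.062) with quantile normalization, and TAPT1-AS1 with median-ratio scaling (0.030). When 1 library was left out it spanned -0.11 to 0.097 for LRRC75A-AS1, -0.096 to 0.065 for EPB41L4A-AS1, -0.13 to 0.42 for HOXC-AS1, -0.18 to 0.20 for HOXC-AS2, -0.062 to 0.28 for ZEB2-AS1, -0.061 to 0.34 for DLX6-AS1, -0.0075 to 0.25 for LOXL1-AS1, -0.15 to 0.072 for TAPT1-AS1 and -0.26 to 0.14 for OSER1. The low depth of most members limits what could be detected, and the causes of these differences were not tested.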
